A study of Mus musculus with 4 samples.

Results

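Resting cells of a thioglycollate-elicited peritoneal exudate were described by the rank of each gene's signal on the 2 arrays hybridised with RNA taken before lipopolysaccharide (LPS), out of 4 arrays in the series. Both arrays belonged to the experiment by their labels (0 h), and no measured value was used to choose them. All 22909 genes that could be named were ranked. For each gene the brightest probe was taken, its log2 signal was expressed relative to the 75th percentile of its array, and the mean of both arrays set the rank. A value of 0 therefore means a signal equal to the array's 75th percentile, and each unit above it is a 2-fold brighter signal.

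The arrays held RNA of wild-type cells and of LysM-St18flox cells, before LPS (0 h) or 3 h after its addition, and every one of the 4 groups had 1 array. In the genotype's name, LysM stands for the lysozyme M promoter, which is commonly used to drive Cre recombination in macrophages and neutrophils, and St18flox for a floxed allele of St18, which encodes a zinc finger transcription factor. In all 4 groups the mice had been injected with 4% thioglycollate, which irritates the peritoneum and recruits leukocytes to it, and cells were washed out after 3 days and kept in medium with 10% serum. Per the labels, the Cy3 labelling started from 100 ng of total RNA. PEC in the sample titles usually abbreviates peritoneal exudate cells, whereas the cell type label is peritoneal macrophage. Whether adherent macrophages were separated from the other exudate cells was not stated in the labels used here. The strain, the age and number of animals behind each RNA and the LPS dose were not stated either. With 1 array per group, no difference was tested, and array, genotype and mixture of cells cannot be told apart in any difference between the arrays.

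St18 served as the check of the labels. Its signal was -1.29 on the wild-type array at 0 h and -4.53 on the LysM-St18flox array at 0 h. At 3 h the values were -1.64 in wild-type and -4.80 in LysM-St18flox cells. At 0 h its brighter probe was well above background in wild-type cells and not in LysM-St18flox cells, and its second probe lay at -6.37, averaged over the 0 h arrays, so the signal of St18 ranked at position 11782 of all genes. The position of the probe relative to the deleted stretch is unknown here.

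Macrophages clear microbes, dying cells and debris by taking them up into phagosomes, which fuse with lysosomes, acid compartments filled with cathepsins and other hydrolases. A thioglycollate exudate of this age is known to consist mainly of macrophages that have arisen from recruited blood monocytes, beside resident macrophages, remaining neutrophils, eosinophils and lymphocytes. Elicited macrophages are known for abundant lysosomes, active actin remodelling and uptake of lipid.

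The signal was concentrated in few genes. On the wild-type array at 0 h the 100 brightest genes carried 20.6% of the summed signal of all named genes, and on the LysM-St18flox array they carried 18.8%. The brightest 5% of genes carried 66.9% and 64.7%. The 75th percentile itself stood at 672 intensity units in wild-type and 1067 in LysM-St18flox cells, 52.2% and 53.2% of spots were well above background by the scanner's flag, and no spot was saturated.

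Genes were set into 5 bands. The top band was the brightest 5.0% of genes (1145 genes, from 8.43 down to 4.40 with a median of 5.39), whose lower edge corresponds to a signal 21.1-fold above the 75th percentile. The upper band was the next 20% (4582 genes, down to 1.23). The middle band held the 30.4% of genes that were dimmer and still well above background on both arrays (6957 genes, down to -4.09). A further 6.46% (1479 genes) were well above background on 1 array, and 38.2% (8746 genes) on neither. In all, 12684 genes (55.4%) were well above background on both arrays. Protein-coding genes made up 97.5% of the top band, 98.4% of the upper band, 92.2% of the middle band and 77.2% of the genes below background.

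**Figure D1:**
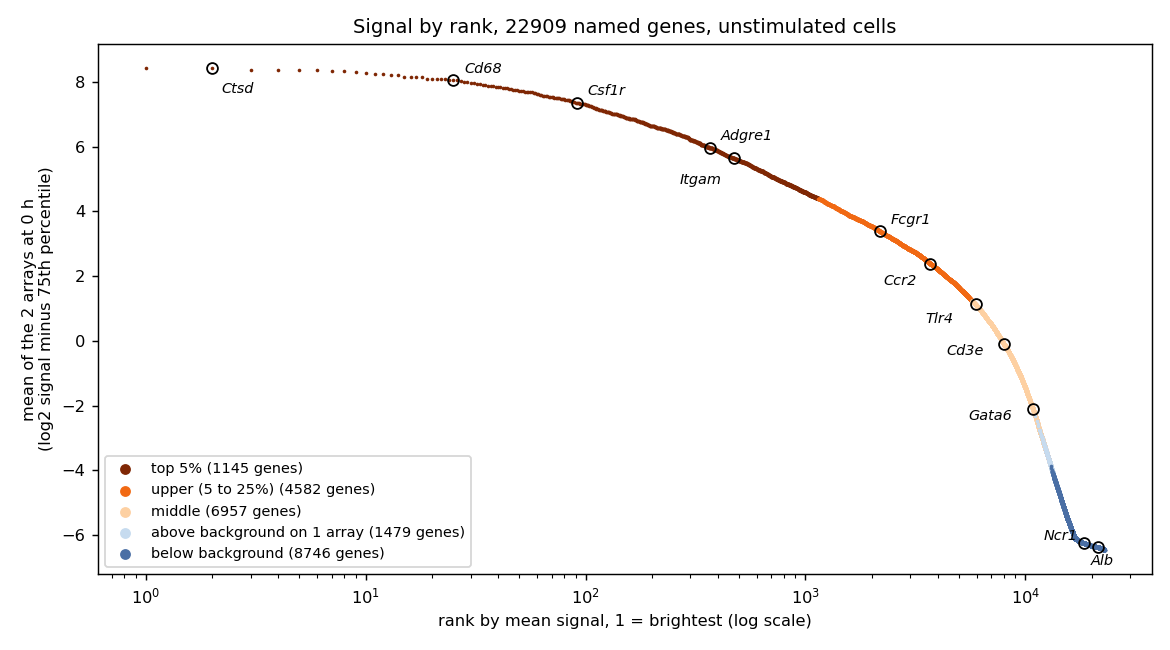
Log2 signal relative to the array's 75th percentile (y axis) against the rank of the gene by mean signal over both 0 h arrays (x axis), with the 5 bands marked. The curve falls from 8.43 at the brightest gene to 4.40 at the edge of the top band of 1145 genes and flattens near the lower limit for the 8746 genes below background.

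The error of a rank has 3 sources in these data. Spot error was small: the spots of 300 probes printed 10 times on each array varied with a median standard deviation of 0.04 log2 units in wild-type and 0.03 in LysM-St18flox cells. Between the arrays, the median absolute difference was 0.23 in the top band, 0.25 in the upper band and 0.34 in the middle band, and the median gene of the top band moved by 84 ranks. Ranking on the wild-type array alone gave 94.3% of the same top genes, and on the LysM-St18flox array alone 94.9%. Each array is part of the mean it is compared with here, and the probes were picked on that mean. The arrays taken singly shared 1022 of their 1145 brightest genes (89.3%). The largest error is the probe: brightness also depends on a probe's sequence and on where it lies in the transcript, so a rank of signal is not a rank of RNA copies, and neighbours in the order cannot be ordered by abundance. At the edge of the top band, Rnf181 (4.34 wild-type, 4.46 LysM-St18flox), Sun2 (4.21, 4.59) and Clptm1l (4.38, 4.42) lay just inside, and Tbc1d22a (4.29, 4.50), Cyb5a (4.25, 4.54) and Nedd8 (4.55, 4.24) just outside. These 6 genes overlapped on the single arrays.

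A total of 91 gene lists was placed on this scale, 62 of functional classes, 25 of cell lineages and 4 of isoform sets. In 11 of them at least 50% of the members lay in the top band, against 5.0% of all genes: cytosolic ribosomal proteins, translation factors, oxidative phosphorylation subunits, glycolysis, the proton pump of lysosomes, other lysosomal proteins, the actin cytoskeleton, annexins, MHC class I with the immunoproteasome, common reference genes and the macrophage list. In 22 lists no member reached the top band. Of the 1145 top genes, 479 (41.8%) belonged to at least 1 list, compared with 19.1% of all named genes, and of the 100 brightest genes 66 did.

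Among the 40 brightest genes, lysosomal proteins formed the largest group that the lists name. Ctsd, the aspartic protease cathepsin D, had a signal of 8.68 on the wild-type and 8.18 on the LysM-St18flox array. Grn, the precursor of the lysosomal granulins, had 8.55 and 8.20. Ctss (8.22, 8.06), Ctsb (8.29, 7.99) and Ctsl (8.06, 7.90), 3 cysteine cathepsins, lay close by, as did Psap, the precursor of the saposins that help degrade sphingolipids (8.32, 7.88), Cd68 (8.30, 7.80) and Lamp1 (7.93, 7.74), which are membrane glycoproteins of lysosomes. Iron and redox proteins were also among the 40, with both chains of ferritin, the iron store (Ftl1 8.50, 8.20, Fth1 8.11, 7.92), and the glutathione peroxidase Gpx1 (8.52, 8.03).

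Lipid carriers, the cytoskeleton and secreted factors made up much of the rest of the 40. Apoe, the lipoprotein component apolipoprotein E, had 8.53 and 8.12, Fabp5, a fatty acid binding protein, 8.09 and 7.88, and Plin2, a coat protein of lipid droplets, 8.24 and 7.58. Actb (8.51, 8.21), the actin-sequestering Tmsb4x (8.16, 7.75), the capping protein Capg (8.12, 7.66) and Arpc1b of the actin-nucleating Arp2/3 complex (7.98, 7.65) represented the cytoskeleton. The chemokine Ccl6 (8.36, 7.80), the secreted phosphoprotein Spp1, also called osteopontin (8.37, 7.66), and the calcium-binding S100a4 (8.40, 7.70) were also among the 40. Like nearly all of the 40, they were brighter on the wild-type array. Fau, Rpl10 and Rpl41 stood for the ribosome, Tpt1 (8.36, 8.09), Ubb (8.22, 7.96) and Ppia (8.04, 8.12) are abundant in most cells, and Crip1 (8.45, 7.88), Milr1 (7.95, 7.80) and Akr1a1 (7.95, 7.80) completed the recognisable names.

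Several of the 40 owed their place to 1 probe against another of the same gene. Slc10a1, the bile acid uptake transporter known from hepatocytes, had 8.49 and 8.26 with its brightest probe, and its second probe lay at -6.30. Pbld1 (8.04, 7.84, second probe -6.43), Elk1 (8.50, 8.27, second probe -2.46), Ttc38 (8.34, 8.15, second probe -2.34), Ndor1 (8.0, 7.89, second probe -2.27) and Med16 (8.21, 7.89, second probe -1.74) shared this pattern. Of the 40, 18 had more than 1 probe, and in these 6 the gap exceeded 6 log2 units. A further 22, among them Kctd14 at the first rank (8.59, 8.27) and Exosc2 (8.15, 8.01), had 1 probe only, so no second reading was available.

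Ribosomal proteins formed the most uniformly bright class. Of 79 cytosolic ribosomal proteins, which build the particles that translate mRNA, 78 lay in the top band and 18 among the 100 brightest genes, and the median member stood at the 99.2 percentile of all genes. Fau, whose product is a fusion of a ubiquitin-like protein with Rps30, had 8.37 on the wild-type and 8.08 on the LysM-St18flox array. Rpl10 had 8.30 and 8.01, Rpl41 8.09 and 7.62, Rplp2 7.95 and 7.66. The exception was Rpl37, at -4.34 and -4.20 and below background on both arrays, with 1 probe. Of the 45 top ribosomal proteins with several probes, 43 (95.6%) had a second probe that also reached the top band, with a median gap of 0.77, so their place did not rest on the choice of the probe. The exceptions were Rps27a (7.42, 7.32, second probe -6.21) and Rpl9 (6.69, 6.65, second probe 2.46).

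Other parts of the translation machinery stood lower. Of 35 translation factors, 19 lay in the top band, 15 in the upper band and 1, Eif2s3x (-0.09, -0.12), in the middle band. Eif5a (7.30, 7.08), the elongation factors Eef1a1 (7.16, 6.72) and Eef2 (7.21, 6.66), and the helicase Eif4a1 (5.96, 6.43) were the brightest. Eif4e, which binds the mRNA cap, lay in the upper band (2.49, 2.27). Mitochondrial ribosomal proteins, which translate the few proteins coded in mitochondrial DNA, were above background in 77 of 78 cases, yet 2 of them reached the top band, Mrpl33 (5.37, 5.33) and Mrpl52 (4.73, 4.57), and 60 lay in the upper band, with a median percentile of 85.9.

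Messages of ribosomal proteins are known to begin with a C followed by a run of pyrimidines, the terminal oligopyrimidine tract through which their translation is controlled by nutrients. The windows around the annotated start, 250 bases before and 50 bases after, were searched for CTTTC or CTTCC on the sense strand from 10 bases before to 15 bases after the start. A window was at hand for 58 of the 79 genes, and 21 of them (36.2%) held either run of letters, compared with 8.79% of all 18072 windows of named genes and 21.0% (13 of 62) of those of oxidative phosphorylation subunits. The stretches of 4 bright members are given to show how the tract sits at the start (RefSeq, GRCm38.p6, capitals mark 1 match in each, and any further match is left in lower case). They lie at chr19:6057927-6057961 on the plus strand (Fau), chr17:27635230-27635264 on the minus strand (Rps10), chr11:114668560-114668594 on the plus strand (Rpl38) and chr2:39005122-39005156 on the minus strand (Rpl35).
Fau: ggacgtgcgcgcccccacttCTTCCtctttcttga
Rps10: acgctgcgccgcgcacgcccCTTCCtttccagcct
Rpl38: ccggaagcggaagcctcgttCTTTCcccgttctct
Rpl35: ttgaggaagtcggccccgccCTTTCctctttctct
In Fau, Rps10 and Rpl38 the first capital is the first base of the annotated transcript. A match describes letters near an annotated start and is not evidence of a working tract.

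Genes of energy metabolism were above background without exception in 3 lists. All 75 subunits of the respiratory chain and ATP synthase were above background on both arrays, 45 of them in the top band and 30 in the upper band, with a median percentile of 96.2. Cox6a1, a cytochrome c oxidase subunit, had 7.33 on the wild-type and 7.32 on the LysM-St18flox array, Cox8a 7.24 and 6.48, and Atp5b, the catalytic beta subunit of ATP synthase, 6.12 and 6.22. Of 21 glycolysis and pentose phosphate genes, 15 lay in the top band (median percentile 98.4), among them Aldoa (7.71, 7.67), Gapdh (8.11, 7.24), Ldha (7.44, 7.38) and Eno1 (7.30, 6.52), and Pfkm, the muscle type of phosphofructokinase, was the dimmest (-0.38, 0.67). The tricarboxylic acid cycle had 5 of 21 genes in the top band, with malate dehydrogenase Mdh2 (5.77, 5.97) and citrate synthase Cs (4.84, 5.02), and a median percentile of 90.8.

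Isoform sets of energy enzymes split by the tissue that each form is known from. The top band held Aldoa, Ldha, Eno1, Pgam1, Pkm, Cox6a1, Cox8a, Cox4i1 and the hexokinase Hk3, known from myeloid cells (6.63, 6.51). Hk1, Hk2, the glucose transporter Slc2a1, Pfkp and Pfkl lay in the upper band. Several forms known from liver or muscle lay below background on both arrays: Pklr (-6.17, -6.25), Cox8b (-6.05, -6.21), Slc2a2 (-6.44, -6.46), Slc2a4 (-6.34, -6.17) and Ckm (-6.43, -6.39). Other muscle forms, Cox7a1 (1.55, 0.61), Eno3 (-0.06, 0.11) and Cox6a2 (0.12, -0.29), lay in the middle band. The testis form of lactate dehydrogenase, Ldhc, was above background on the LysM-St18flox array alone (-6.39, -3.77).

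Lysosomal genes were bright across the class. Of 39 lysosomal proteins outside the cathepsins and the proton pump, 24 lay in the top band, 13 in the upper band and 2 in the middle band, with a median percentile of 96.4. After Grn, Psap, Cd68 and Lamp1 came the protease legumain (Lgmn 7.73, 7.41), the alpha-galactosidase Gla (7.45, 7.30), Cd63 (7.25, 7.38), the hexosaminidase subunit Hexa (6.68, 6.44) and the phosphatase Acp5 (6.04, 6.45). The cholesterol carriers Npc2 (6.15, 6.07) and Npc1 (4.60, 4.39) were both in the top band. Arsb (-2.02, -2.79) lay in the middle band.

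The 18 cathepsins fell into separate groups. The 8 in the top band were Ctsd, Ctss, Ctsb, Ctsl, Ctsa (7.38, 7.50), Ctsz (7.49, 7.10), Ctsh (7.02, 7.01) and the collagen-degrading Ctsk (4.80, 5.12), 5 of them among the 100 brightest genes. Ctsc, which activates granule serine proteases, was in the upper band (4.16, 3.93). Ctso, Ctsf, Ctsw and Ctse lay in the middle band between -1.73 and -3.53, and the placental cathepsins Ctsj, Ctsq and Ctsr lay below background on both arrays. Ctsg, a protease of neutrophil granules (-6.39, -3.56), and the placental Ctsm (-3.37, -5.01) were each above background on 1 array.

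Subunits of the V-ATPase, which acidifies lysosomes, split in the same manner. Of 24 genes, 13 were in the top band, led by Atp6v0c (7.27, 6.57), Atp6v1b2 (6.94, 6.41), Atp6v0e (6.50, 6.50) and Atp6v1f (6.54, 6.44). The 6 below background were Atp6v0e2, Atp6v1e2, Atp6v0a4, Atp6v1g3, Atp6v1b1 and Atp6v1c2, forms known mainly from kidney, inner ear, brain or testis. The subunit pairs thus lay at opposite ends of the scale: Atp6v1b2 in the top band and Atp6v1b1 at -6.32 and -6.33, and Atp6v0a1 (6.74, 5.99) in the top band and Atp6v0a4 at -4.33 and -6.29. Among inhibitors of proteases, Cst3, the secreted inhibitor of cysteine cathepsins, had 7.68 and 7.19, the cytosolic Cstb 6.69 and 6.47 and the metalloproteinase inhibitor Timp2 6.40 and 6.81. Timp1 stood lower (3.00, 1.36).

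Many lysosomal genes are known to share the CLEAR element, an extended CACGTG box bound by TFEB and its relatives. Windows of the lysosomal, cathepsin and V-ATPase genes were searched for TCACGTG on both strands, which contains the general E-box CACGTG. Of 48 windows of members in the top and upper bands, 13 (27.1%) held it, and of 15 windows of members in the other bands none did. Of all windows, 4.55% held it, with 9.19% in the top band and 2.57% among genes below background. The matches included Ctsd, Lamp1, Gla, Naglu, Gaa, Glb1, Sgsh, Arsa, Mcoln1 and 4 V-ATPase subunits, and 5 of them are given to show the box in its surroundings (RefSeq, GRCm38.p6, 1 box in capitals, each on the strand of its gene). They lie at chr7:142387900-142387946 on the minus strand (Ctsd), chr8:13159079-13159125 on the plus strand (Lamp1), chrX:134601207-134601253 on the minus strand (Gla), chr11:101070000-101070046 on the plus strand (Naglu) and chr16:44139365-44139411 on the minus strand (Atp6v1a).
Ctsd: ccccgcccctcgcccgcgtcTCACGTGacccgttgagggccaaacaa
Lamp1: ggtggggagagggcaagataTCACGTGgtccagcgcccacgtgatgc
Gla: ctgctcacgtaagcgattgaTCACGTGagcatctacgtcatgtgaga
Naglu: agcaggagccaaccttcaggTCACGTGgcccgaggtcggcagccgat
Atp6v1a: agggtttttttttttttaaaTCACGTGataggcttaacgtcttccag
The stretch of Lamp1 holds a further match, on the other strand, in lower case. Of the factors known to bind it, Mitf lay in the upper band (3.47, 3.90) and Tfeb (1.38, 0.70) and Tfec (-0.34, -1.25) in the middle band. The matches are descriptions of letters, and binding was not measured.

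Genes of the actin cytoskeleton, which drives phagocytosis and migration, were in the top band in 36 of 47 cases, with a median percentile of 98.1. After Actb and Tmsb4x came Cotl1 (8.01, 7.29), Myl6 (7.90, 7.39), Arpc2 (7.77, 7.34), Actg1 (7.64, 7.30) and the intermediate filament gene Vim (7.22, 7.07). The leukocyte proteins Lsp1 (7.02, 6.68), Lcp1 (6.23, 6.14) and Coro1a (5.87, 5.75) were also in the top band. Pfn1, an abundant actin-binding protein in most cells, lay in the upper band with the widest gap between the arrays (1.67, 3.44), and Vasp was the dimmest (0.81, 1.57). Of the 21 top members with several probes, 6 (28.6%) had a second probe in the top band, so the ranks of this class rested on the brightest probe more than those of the ribosome. In the isoform sets, Actb, Actg1, Myh9, Rac1, Rac2, Cfl1, Tuba1b, Tuba1c, Tubb6 and Lmna lay in the top band, Myh10, Myh14, Tubb3, Tubb4a and Pfn2 in the middle band, and Acta1 (-5.78, -6.35) and Tubb1 (-6.11, -6.03) below background.

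Genes of protein folding and turnover were mostly in the top and upper bands. Of 39 proteasome subunits, which form the protease that degrades ubiquitin-tagged proteins, 14 were in the top band and 20 in the upper band, with a median percentile of 94.0. Psmb6 (6.36, 6.33) and Psmc3 (5.69, 5.71) led, Psma8, known from testis, lay in the middle band (-1.48, -1.03), and Psmb11, the thymus form of a catalytic subunit, lay below background (-6.45, -6.37). All 29 endoplasmic reticulum chaperones were above background and 14 in the top band, among them Erp29 (6.65, 6.55), Hsp90b1 (5.98, 5.65) and Hspa5, also called BiP (5.67, 5.26). Pdia4 differed most between the arrays (-3.96, 0.70). Of 33 cytosolic chaperones 8 were in the top band, with Hsp90ab1 (6.30, 6.11), Hspa8 (5.17, 5.34) and 4 subunits of the CCT ring that folds actin and tubulin, while Hspb3 and Hspb8, known from muscle, were below background.

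Signalling genes with several forms split by form, as the metabolic enzymes did. Of 38 genes in these sets, 7 were in the top band, among them Gnai2 (6.33, 5.62), Akt1 (5.60, 4.95), the Src-family kinase Lyn (5.20, 4.92), Plcg2 (4.80, 4.85), Vav1 and Prkcd. Known from blood cells, Fgr, Pik3cd and Prkcb lay in the upper band. Src itself, Yes1, Plcg1, Gnai1 and Mapk10 lay below background on both arrays.

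Families of surface and membrane proteins differed in their share of bright members, against 5.0% of all genes in the top band. Of 26 integrins, which anchor cells to matrix and to each other, 7 (26.9%) were in the top band, with Itgb1 (5.58, 5.07), Itgb7 (5.62, 4.76), Itgb5 (5.08, 4.65) and Itgav (4.51, 4.31) beside those of complement receptor 3, and 8 were below background. Of 25 tetraspanins, Cd63 and Cd9 (6.25, 6.08) were in the top band (8.0%). Of 362 solute carriers, 13 (3.59%) were in the top band and 122 (33.7%) below background, against 38.2% of all genes. After Slc10a1 and Slc11a1 came the amino acid transporter chain Slc3a2 (5.76, 4.94), the peptide transporter Slc15a4 of endolysosomes (4.95, 5.08) and the lactate exporter Slc16a3 (5.34, 4.56). Of 57 Rab GTPases, which direct vesicle traffic, 5 (8.77%) were in the top band, Rab7b (6.70, 6.71), Rab5c (5.56, 4.63), Rab1a, Rab8b and Rab14.

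Proteases of the matrix and clotting factors reached the top band about as often as all genes or somewhat more often. Of 55 matrix metalloproteinases and ADAM proteases, 3 (5.45%) were in the top band, Adam8 (6.77, 6.92), Adam15 (6.94, 6.59) and the macrophage elastase Mmp12 (4.89, 5.49), and 32 were below background. Of 33 genes of coagulation and fibrinolysis, the urokinase receptor Plaur (5.75, 5.33), F10 (5.50, 5.05) and F13a1 were in the top band (9.09%) and F7 and the urokinase Plau (3.67, 3.64) in the upper band. Factors known from liver, F2, F11, F12, Plg, Fga and Fgg, were below background on both arrays.

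Calcium-binding proteins that associate with membranes followed. Of 12 annexins, 6 were in the top band: Anxa2 (7.80, 7.59), Anxa5 (7.38, 6.90), Anxa1 (6.94, 7.27), Anxa3, Anxa4 and Anxa6. Anxa10 and Anxa13 were below background. Of 16 S100 genes, S100a4, S100a6 (7.20, 6.93), S100a10 (5.84, 5.19), S100a11 (5.52, 4.38) and S100a9 were in the top band and S100b, S100a5, S100a14 and S100z below background. The galectins Lgals3 (7.93, 7.67) and Lgals1 (7.71, 6.85) were in the top band and Lgals2 below background.

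Iron, lipid and redox genes had bright leading members and long tails. Of 23 iron genes, 5 were in the top band: Ftl1 and Fth1, transferrin (Trf 5.78, 6.28), the phagosomal metal transporter Slc11a1 (5.54, 5.41) and the haem oxygenase Hmox1 (4.95, 5.54). The iron exporter Slc40a1 lay in the middle band (-2.13, -2.14), and Hamp, Hpx and Steap4 lay below background. Of 41 lipid genes, 14 were in the top band. They included Trem2, a lipid-sensing receptor of macrophages (7.63, 7.50), lipoprotein lipase (Lpl 6.76, 6.83), Fabp4 (6.08, 6.03), the scavenger receptor Cd36 (4.69, 5.53) and the nuclear receptor Pparg (4.59, 4.38). The apolipoproteins of liver and gut, Apoa1 (-6.13, -6.26) and Apob (-6.11, -6.29), and the adipocyte droplet proteins Plin1 and Plin4 were below background. Of 35 redox genes, 7 were in the top band, with Gpx1, Prdx1 (7.07, 7.22) and Gpx4 (6.13, 5.47) the brightest, and Nqo1 was above background on 1 array (-3.63, -5.78).

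Antigen presentation differed between its branches. Of 18 genes of the MHC class I route, 9 were in the top band and none below background. B2m, the shared light chain, had 7.37 and 7.14, and H2-K1 (7.18, 7.25), H2-D1 (7.28, 7.11) and H2-Q4 (6.97, 7.18) were of the same band, although probes of these closely similar genes may hybridise with each other's transcripts. The peptide transporter genes Tap2 (3.56, 3.77) and Tap1 (1.26, 2.0) lay in the upper band. Of 12 class II genes, 4 were in the top band: H2-Ab1 (6.17, 7.12), Cd74 (6.27, 6.67), H2-Eb1 (5.88, 6.90) and the thiol reductase Ifi30 (5.72, 5.22). Signals of class II genes were higher on the LysM-St18flox array for H2-Aa (2.88, 4.87), Ciita, their master regulator (1.96, 3.16), H2-DMa (1.55, 2.82) and H2-DMb1 (3.42, 3.97) too, and the median percentile of the list was 83.9 on the wild-type and 91.4 on the LysM-St18flox array. B cell genes, which are described with the lineages, moved the same way, and their part in this was not tested.

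Receptors and opsonins for uptake ranked widely. Of 36 complement genes, 7 were in the top band: properdin (Cfp 7.41, 6.78), Cd93 (6.42, 6.39), the 3 chains of C1q (C1qc 6.50, 6.09, C1qb 5.92, 6.01, C1qa 5.67, 5.63) and both chains of complement receptor 3 (Itgb2 6.43, 5.52, Itgam 5.78, 5.50). Components made in liver, C6, C8a, C8b, C9, Hc, Mbl1 and Mbl2, were below background. Of 17 Fc receptor genes, the signalling chains Tyrobp (7.87, 7.65) and Fcer1g (7.57, 7.05) and the kinase Syk (4.75, 4.87) were in the top band, and the receptors Fcgr2b, Fcgr3, Fcgr4 and Fcgr1 in the upper band between 3.27 and 4.24. Pigr, the epithelial carrier of immunoglobulin A, also reached the top band (6.24, 6.16), with a second probe at -6.35. Of 30 scavenger and efferocytosis receptors, 7 were in the top band, led by Mfge8, which bridges phosphatidylserine to integrins (6.76, 7.35), and Cd5l (6.68, 5.89). Axl (2.98, 3.81) and Mertk (1.90, 1.63) were in the upper band and Tyro3 in the middle band (-3.90, -3.53).

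Sensors of microbes spread over the bands. Of 26 genes of Toll-like receptors and LPS recognition, 24 (92.3%) were above background on both arrays, against 55.4% of all genes. In the top band were 4 (15.4%, against 5.0% of all genes), with 8 in the upper and 12 in the middle band. The 4 were the co-receptors of LPS Cd14 (5.97, 5.21) and Ly96 (4.47, 4.71), the trafficking protein Unc93b1 (5.86, 5.46) and Tlr13 (5.30, 5.04). Tlr4, the LPS receptor itself, lay in the middle band at 1.11 on the wild-type and 1.14 on the LysM-St18flox array, with a second probe at -3.42. Tlr2 (3.84, 3.68), Tlr7 (2.59, 2.45) and the adaptor Myd88 (3.20, 2.73) were in the upper band, and Tlr11 and Tlr12 below background. Among 32 myeloid C-type lectins, Clec4d (6.0, 5.65), Clec12a (4.89, 5.0) and Clec10a (4.16, 4.75) were in the top band (9.4%). Below background were 12 (37.5%, close to the 38.2% of all genes), among them Cd207 and Clec4f, known from Langerhans and Kupffer cells.

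Interleukin and interferon genes were among the dimmest of the immune classes before LPS, with median percentiles of 33.4 and 37.4. No interleukin gene of 35 was in the top band, and 22 lay below background, against 38.2% of all genes. Il1rn, the interleukin 1 receptor antagonist, was the brightest (3.88, 3.75), Il1b lay in the middle band (0.47, 0.24), and Il6 (-5.15, -5.09), Il12b (-5.88, -5.56) and Il23a (-6.31, -5.36) below background. Of 17 interferon genes, 5 were above background on both arrays, all in the middle band, and Ifnb1 was below (-6.04, -6.47). Tnf lay in the middle band (1.38, 0.87).

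Chemokines spread over all bands. Of 21 CC chemokines, Ccl6, Ccl9 (7.71, 6.96) and Ccl2, which attracts monocytes (6.15, 5.29), were in the top band (14.3%, against 5.0% of all genes). Ccl7, Ccl24, Ccl4 and Ccl3 lay in the upper band. Below background were 9 (42.9%, against 38.2% of all genes), among them Ccl22 and Ccl20. Of 16 CXC and other chemokines, Pf4 was in the top band (7.36, 6.38) and 6 lay below background. Both shares (6.25% and 37.5%) were close to those of all genes. No chemokine receptor reached the top band, and Ccrl2 (2.73, 2.87) and Ccr2 (2.45, 2.33) lay in the upper band. Receptors of the colony stimulating factors lay in higher bands than the factors themselves. The receptor genes Csf1r (7.34, 7.38), Csf2ra (6.43, 6.66), Csf2rb (5.58, 5.72) and Csf3r (6.35, 7.03) were in the top band, Csf1 in the upper band (1.45, 1.44), and Csf2 (-6.39, -6.37) and Csf3 (-6.43, -6.43) below background.

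Interferon-stimulated genes were above background on both arrays in 41 of 45 cases, with 6 in the top band and a median percentile of 72.4. Ifitm3, which blocks viral entry, had 7.35 and 6.57, and Irf7 4.48 and 4.91. Isg15 (1.69, 2.07) was in the upper band, Rsad2 (0.04, -0.19) and Ifit1 (-3.42, -2.83) in the middle band, and Ifi44 and Ifit3b below background. Of 25 genes linked to alternative activation, 9 were in the top band, led by fibronectin (Fn1 7.65, 7.30), the arginase Arg1 (5.78, 5.33) and the chitinase-like Chil3 (5.49, 5.30). Nos2, the inducible nitric oxide synthase that competes for the same substrate as Arg1, lay in the middle band (-2.87, -2.71). Of the eicosanoid genes, the leukotriene proteins Alox5ap (6.49, 6.14) and Ltc4s (6.16, 5.20) and the thromboxane synthase Tbxas1 (5.42, 4.77) were in the top band, Ptgs1 in the upper band (2.20, 1.80) and Ptgs2 in the middle band (-2.21, -2.38).

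Transcription factor genes occupied the upper and middle bands for the most part. Of 40 myeloid factors, 7 were in the top band: Cebpb (5.49, 5.22), Klf6, Rxra (4.96, 4.95), Id2, Lyl1 (4.66, 4.77), Irf8 (4.85, 4.38) and Pparg. Spi1, which encodes PU.1, the factor that specifies macrophages, lay in the middle band at -0.11 and 0.72. Cebpa (4.05, 3.92) and Zeb2 (3.93, 3.70) were in the upper band. All 29 NF-kB and immediate early factors were above background, with Atf4 (6.92, 6.87), Atf3 (5.43, 5.83), Junb (5.54, 5.32) and the inhibitor Nfkbia (5.12, 4.80) in the top band. Genes of the cell cycle were above background in 46 of 49 cases, and 1 was in the top band, Pcna (4.95, 4.96). The proliferation marker Mki67 lay in the middle band (0.82, 1.04), and 34 of the 49 genes shared that band.

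**Figure D2:**
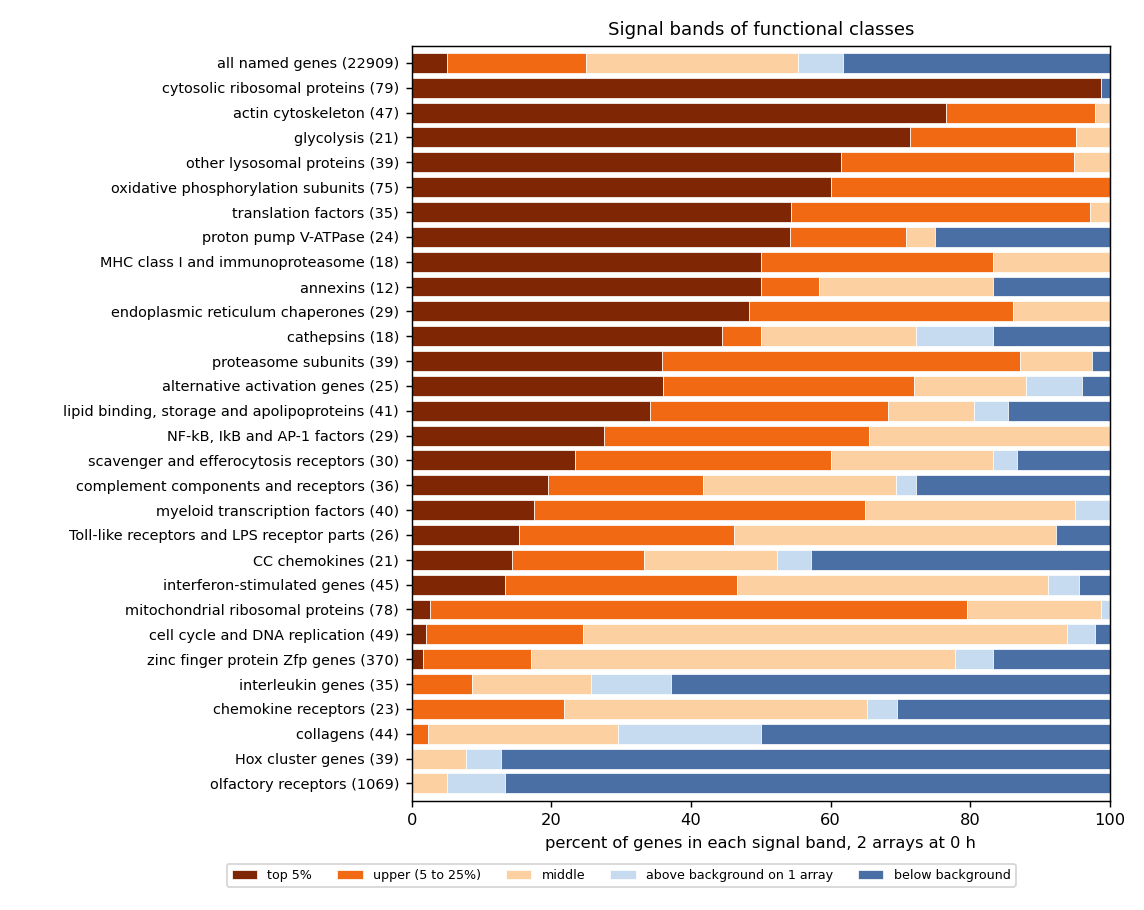
Share of the members of each gene list (x axis, percent) in the 5 signal bands, with 1 bar for each of the functional classes chosen for display and 1 for all named genes. Of the ribosomal proteins 98.7% and of the actin genes 76.6% lie in the top band, against 5.0% of all genes, and olfactory receptors are below background in 86.6%.

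The lineage lists were led by macrophage genes. All 22 macrophage genes were above background on both arrays, 16 in the top band and 6 in the upper band, with a median percentile of 98.2. Csf1r, the receptor on which macrophage survival depends, had 7.34 on the wild-type and 7.38 on the LysM-St18flox array. Adgre1, the F4/80 antigen, had 5.92 and 6.02, Mpeg1 7.61 and 7.33, and Itgam 5.78 and 5.50. Lyz2, the gene whose promoter names the LysM driver, had 4.85 and 6.04, and the near-identical Lyz1 5.70 and 5.90, so that their probes may read each other's transcripts. Mertk and Cx3cr1 (1.69, 1.24), known from resident macrophages, were the dimmest of the list. The labelled cell type therefore had its defining markers present on both arrays. The summed signal of the list, in multiples of the 75th percentile, was 2431 in wild-type and 2049 in LysM-St18flox cells. Its median percentile was 98.2 and 98.3. Lower sums in LysM-St18flox cells were not particular to macrophage genes: that of the actin genes was 4265 in wild-type and 3344 in LysM-St18flox cells. Some other lists went the other way, such as the MHC class II genes (287, 461). In such bulk samples, fewer cells of a type, less RNA per cell and a difference between the arrays cannot be told apart. This holds here and in the lineages that follow.

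The lists drawn up for the 2 known origins of peritoneal macrophages differed in rank. Of 20 genes of recruited, monocyte-derived macrophages, all were above background, 7 in the top band and 10 in the upper band, with a median percentile of 90.8. They included Fn1, Ms4a4c (6.84, 5.92), Arg1, Chil3, Folr2 (5.61, 5.09) and F13a1 (5.07, 4.86), and lower Ccr2 and the near-identical Ly6c2 (1.74, 1.93) and Ly6c1 (1.54, 1.94). Of 23 genes of large peritoneal macrophages, the resident population, 4 were in the top band, 5 in the upper and 12 in the middle band, with a median percentile of 66.1. Cd5l, Itga6 (5.02, 4.91), Thbs1 and Saa3 led, while the defining factor Gata6 (-2.18, -2.04) and the receptor Timd4 (-2.30, -1.61) lay in the middle band and Icam2 in the upper band (3.00, 3.90). The summed signal of the resident list was 233 in wild-type and 187 in LysM-St18flox cells, and of the recruited list 655 and 618. By median percentile the resident list went the other way, at 63.5 in wild-type and 68.5 in LysM-St18flox cells. The recruited list stood at 91.0 and 91.1. Fn1, Arg1 and Chil3 of the recruited list are also counted among the genes of alternative activation, so its rank does not reflect origin alone. The lists hold different genes read by different probes, so neither the ranks nor these sums measure the proportions of the populations. Of 20 genes of macrophages in other organs, 3 were in the top band, among them Acp5 and Siglech, but Siglech rested on 1 of its probes (6.73, 6.71, second probe -6.36), and Sall1, Clec4f, Cd207 and Car4 were below background.

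Neutrophil genes were detected at intermediate ranks. Of 24 genes, 19 were above background on both arrays, 3 in the top band and 14 in the middle band, with a median percentile of 63.1 on the wild-type and 49.5 on the LysM-St18flox array. S100a9, a subunit of calprotectin, had 5.66 in wild-type and 3.40 in LysM-St18flox cells, and its partner S100a8 4.08 and 2.34. Cxcr2, the receptor that guides neutrophils into tissue, had -1.71 and -3.93, and Lcn2 -0.23 and -2.60, all lower on the LysM-St18flox array. Csf3r went the other way (6.35, 7.03), as did Retnlg (3.09, 3.89). The sums over the list were 204 and 189. Csf3r, the brightest member on both arrays, carried the largest part of each, so the sums do not describe the other members. Granule genes of immature cells differed among themselves. Elane was in the middle band close to its upper edge (1.5, 0.88), Mpo lower in the same band (-3.07, -3.31), and Ngp below background. Ly6g was not analysed here.

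Lymphocyte genes ranked near the middle. B cell genes were brighter on the LysM-St18flox array by the median and the sum of their list. Of 18 B cell genes, 15 were above background on both arrays and 1, the adaptor Blnk that macrophages also carry (5.90, 6.17), was in the top band. Ms4a1, which encodes CD20, had -1.80 and 1.85, and Cd79b 1.21 and 3.56. Cd79a was above background on the LysM-St18flox array alone (-4.26, -2.46). The median percentile was 50.2 in wild-type and 66.1 in LysM-St18flox cells. Summed signals were 92.9 and 115, but most of each came from Blnk, so the sums say little about B cells. Of 23 T cell genes, 17 were above background on both arrays. The receptor chain Il7r was the brightest (5.63, 5.75), Cd3e had -0.01 and -0.19 and Cd4 1.61 and 0.56, and Cd8a (-6.14, -6.27) lay below background. The T cell median was 50.8 in wild-type and 58.1 in LysM-St18flox cells, although Cd3e and Cd4 were lower in the latter. Of 18 genes of NK and innate lymphoid cells, 10 (55.6%) were above background, close to the 55.4% of all genes, and Ncr1 was not (-6.42, -6.33). Jchain, of antibody-secreting cells, was above background on 1 array (-6.45, -3.79).

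Genes of mast cells and eosinophils were above background about as often as all genes (55.4%) or somewhat more often, and those of basophils less often. Of 14 mast cell genes, 8 (57.1%) were above background on both arrays, among them the proteases Cma1 (-0.99, 1.54) and Cpa3 (-1.27, 0.97) and the receptor Kit (-2.27, -2.52). Of 12 eosinophil genes, 8 (66.7%) were above background, with Ccr3 (0.56, 1.68) and Siglecf (0.45, 1.63), while the granule genes Prg2 (-6.38, -6.21) and Epx (-6.32, -6.35), made early in eosinophil development, were not. Summed signals were 5.53 and 9.99 for mast cells and 7.72 and 15.8 for eosinophils, higher on the LysM-St18flox array in both. Of 8 basophil genes, 3 (37.5%) were above background on both arrays. Il3ra was in the top band (4.51, 4.39), with its second probe 3.76 log2 units lower, and the protease Mcpt8 was below background.

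Dendritic cell genes were led by members that macrophages share. Irf8, Wdfy4 (4.40, 4.42), Itgax (3.79, 4.45) and Cd24a led the 16 genes. Above background on both arrays were 9 (56.25%), close to the 55.4% of all genes. The defining genes Zbtb46 (-5.29, -5.46) and Xcr1 (-6.20, -6.33) lay below background and Flt3 in the middle band (-0.90, -1.05). Of 11 plasmacytoid genes, 8 (72.7%) were above background on both arrays, with Siglech and Bst2 (3.69, 3.96) the brightest, Ccr9 in the middle band (-4.0, -2.28) and Lag3 below background (-6.19, -4.25). Their median percentile was 56.7 in wild-type and 73.2 in LysM-St18flox cells.

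Most genes of the peritoneal lining and the stroma lay in the middle band or lower. Of 15 mesothelial genes, 9 (60.0%) were above background on both arrays, against 55.4% of all genes, with Msln (-1.17, -2.25), Krt19 (-0.14, -1.83) and Wt1 (-1.50, -2.33) in the middle band and Upk3b above background on the wild-type array alone (-4.10, -6.23). The brightest member was the secreted inhibitor Slpi, which leukocytes also make (4.18, 5.05, second probe -4.27). Of 19 fibroblast genes, 11 (57.9%) were above background, among them Col1a1 (-0.31, -1.57), Col3a1 (0.49, -1.54) and Dcn (1.67, 0.56), and Pdgfra on the wild-type array alone (-3.61, -5.50). All of these middle-band and 1-array genes were higher on the wild-type array. The smooth muscle actin Acta2 reached the top band (5.18, 5.17), with a second probe at -0.98, and the actin-severing Gsn did so too (5.10, 4.96, second probe -3.02), whereas Cnn1 and Myh11, of the same tissue, were below background. Of 17 endothelial genes, 5 were above background, Pecam1 among them (-3.63, -3.32), and Cdh5 was below (-5.99, -5.21). The adipocyte genes Adipoq, Plin1 and Cfd were below background.

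Red cell genes had the widest ratio between the arrays in summed signal of the lineage lists. The haemoglobin chains Hba-a1 (2.42, 5.20) and Hba-a2 (2.37, 5.15), near-identical copies that cannot be read apart, Hbb-bt (-0.69, 3.05) and Hbb-b2 (-1.98, 1.14) were all brighter on the LysM-St18flox array. The membrane gene Slc4a1 and the factor Klf1 were below background on both. Summed erythroid signal was 12 in wild-type and 84.2 in LysM-St18flox cells at 0 h, and 11 and 99.6 on the 3 h arrays. Of 14 platelet genes, Pf4 was in the top band, Ppbp lay at -2.45 and -4.01, and Itga2b (-6.40, -5.89), Gp9 and Gp1ba were below background. Summed signals of the platelet list, nearly all of it Pf4, were 175 and 93.1.

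Genes of distant tissues were near or below the limit. Of 18 hepatocyte genes 13 were below background on both arrays, Alb among them (-6.20, -6.29), of 20 gut and pancreas genes 17, with Vil1 (-5.70, -6.37), and of 16 testis and germ cell genes 14, with Ddx4 (-5.53, -5.02). Of 22 neuron and glia genes 14 were below background, and 1 was in the top band, Snap25 (5.11, 4.80), a synaptic fusion protein whose second probe lay at -6.45. Of 25 muscle genes 13 were below background, and the muscle factor Myod1 was above background on 1 array (-3.90, -4.91). Of the 25 lineage lists, 23 had a median member below the 75th percentile of all genes, and the exceptions were the macrophage and the recruited macrophage lists.

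**Figure D3:**
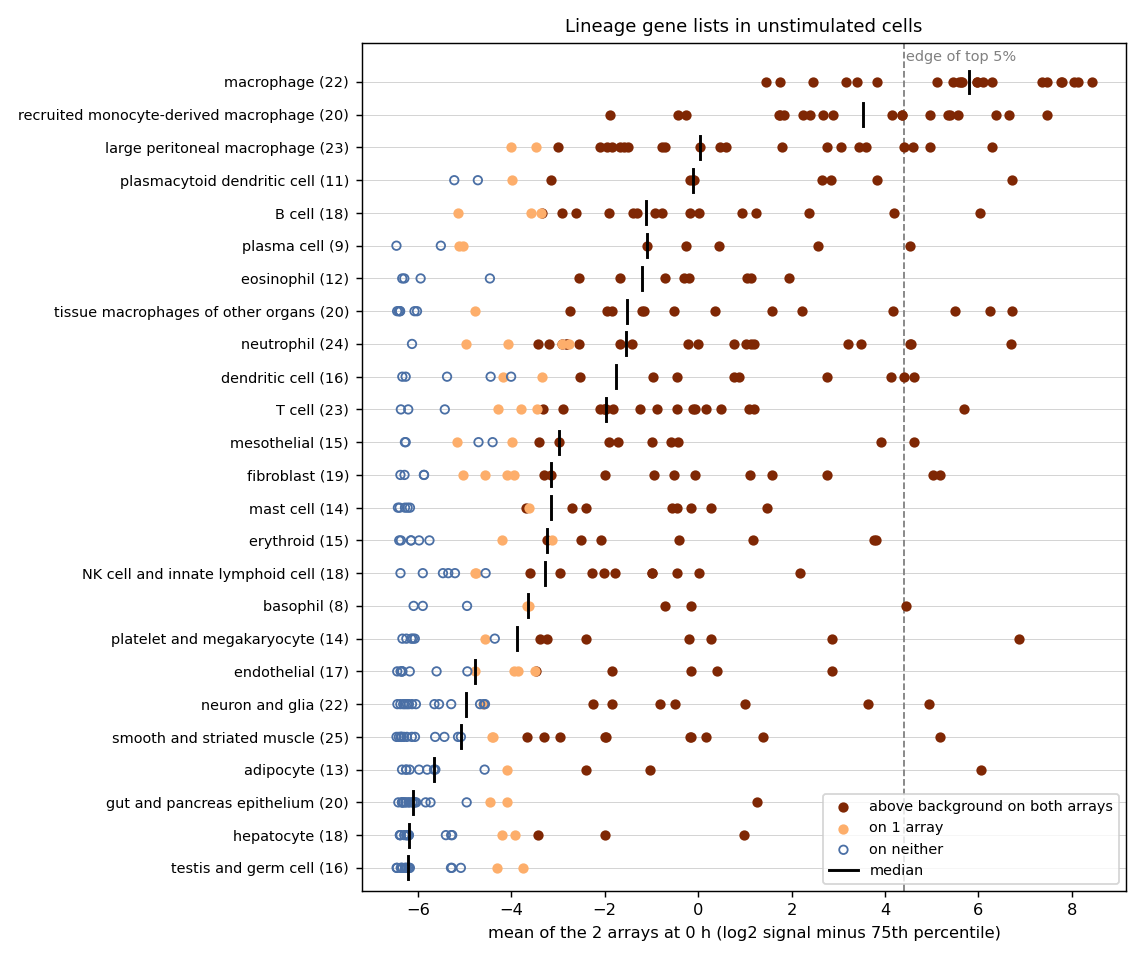
Log2 signal relative to the 75th percentile, mean of both 0 h arrays (x axis), of each gene of the 25 lineage lists, with 1 point per gene and the median marked by a bar. The macrophage list has its median at the 98.2 percentile of all genes and no gene below background, and the testis and germ cell list has 14 of 16 genes below it.

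Large gene families showed where silence was the rule. Of 1069 olfactory receptor genes, 926 (86.6%) were below background, 54 (5.05%) were above background on both arrays, and 1, Olfr571 (2.01, 1.27), reached the upper band. Of 258 vomeronasal receptors 216, of 52 taste and trace amine receptors 46, of 47 protocadherins 39, of 39 Hox genes 34 and of 42 beta-defensins 34 were below background, against 38.2% of all genes. Hoxb4 was the brightest Hox gene (-0.12, 0.13). Of 132 voltage-gated and related ion channels, 82 were below background and the exception in the top band was Kcnn4, a calcium-activated potassium channel of leukocytes (4.93, 4.96). Of 370 Zfp genes, in contrast, 288 (77.8%) were above background on both arrays, against 55.4% of all genes. In the top band were 6 (1.62%), fewer than the 5.0% of all genes. Of these, 4 had several probes, and none of the 4 had a second probe in the top range, with a median gap of 10.4 log2 units. Histone genes split as well: H3f3a (6.33, 6.27), H3f3b and H2az1, variants made outside the S phase, were in the top band together with 7 near-identical H2ac genes whose probes cannot be read apart and H2aj.

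The start windows differed between the bands. The median number of CG dinucleotides in 300 bases was 19 in the top band, 22 in the upper band, 18 in the middle band, 7 for genes above background on 1 array and 4 for genes below background, and the GC content was 60.0%, 61.3%, 59.0%, 53.3% and 49.7%. The GC box GGGCGG, on either strand, occurred in 62.7% of top, 66.9% of upper and 57.3% of middle windows. It occurred in 25.6% of windows of genes below background and in 46.3% of all windows. TATAAA, on either strand, occurred in 11.3% of top, 6.89% of upper and 8.24% of middle windows, so its share did not fall steadily with signal. It occurred in 19.5% of windows below background and 12.9% of all. Among the 912 windows of olfactory receptors, whose median GC content was 35.0%, 41.0% held it. Windows of the macrophage list were unlike those of the top band as a whole, with a median of 5 CG dinucleotides in 15 windows. Base composition differs between these sets, so the shares of the motifs are descriptions only.

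Probes of one gene often disagreed. Of the 1145 top genes, 549 had several probes, and in 141 of these (25.7%) the second probe was also in the range of the top band. The median gap between the first and second probe was 2.73 log2 units, and it exceeded 6 in 120 genes. Among top genes in a list, 94 of 223 (42.2%) had a second probe in that range, and among top genes in no list 47 of 326 (14.4%), with median gaps of 1.86 and 3.57. Those furthest apart, after Slc10a1, Pbld1, Rps27a and Siglech, were Endov (7.62, 7.46, second probe -6.36), Medag (7.80, 7.62, second probe -5.90), Mfsd2b (7.09, 7.0, second probe -6.38) and Mcmdc2 (7.12, 7.51, second probe -5.62). Macrophage genes were not exempt: Csf1r had a second probe at 1.22 and Adgre1 at -1.22, and 3 of 7 top macrophage genes with several probes had a second one in the range.

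**Figure D4:**
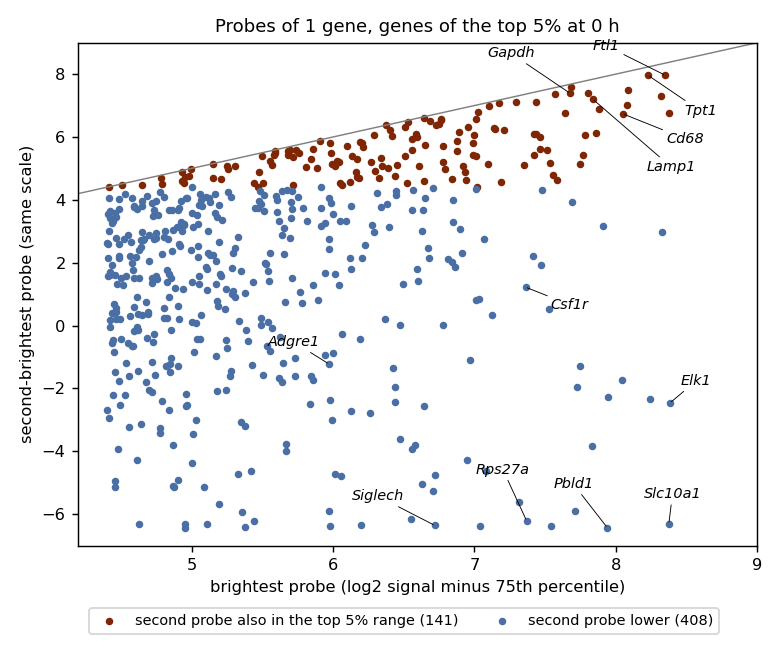
Signal of the second-brightest probe (y axis) against that of the brightest probe (x axis) for the 549 top genes with several probes, both as log2 relative to the 75th percentile and averaged over the 0 h arrays; the line marks equality. The second probe also reaches the top range in 141 genes, and in 120 genes it lies more than 6 log2 units lower.

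Within the top band the arrays were close. Of the 12684 genes above background on both arrays, 381 (3.0%) had a signal at least 2-fold above that of wild-type on the LysM-St18flox array, and 400 (3.15%) one that was 2-fold or more below it. Of the 1145 top genes, 29 (2.53%) were at least 2-fold apart between the arrays. The largest gaps towards wild-type were those of S100a9, the scavenger receptor Stab1 (5.92, 4.56), the adaptor subunit Ap2s1 (6.95, 5.64), Raver1 (6.05, 4.75), Suv39h2 (5.05, 3.87), Arhgef1 (5.40, 4.26), S100a11 and Ccdc25 (6.45, 5.32). Towards LysM-St18flox they were those of the ribosomal RNA gene Rn28s1 (2.97, 7.19), Lyz2, Oxsm (5.27, 6.42), Ly86 (4.62, 5.67), H2-Eb1, H2-Ab1, Tmed2 (4.13, 5.02) and the protease inhibitor Slpi (4.18, 5.05). Whether the higher signal of Rn28s1 moved other values was not tested.

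The arrays taken after 3 h of LPS showed how much of the resting order remained. Of the 1145 top genes at 0 h, 888 (77.6%) were among the same number of brightest genes on both 3 h arrays, and 195 genes were in that range on both 3 h arrays and not at 0 h. All 78 ribosomal proteins of the top band, all 8 cathepsins and all 16 macrophage genes stayed in it on both arrays, as did 40 of 45 oxidative phosphorylation subunits and 19 of 24 other lysosomal proteins. Interferon-stimulated genes had 6 members in the top band at 0 h and 23 at 3 h, and their median percentile was 72.4 at 0 h and 95.1 in wild-type and 96.6 in LysM-St18flox cells at 3 h. CC chemokines went from 3 to 7 members, CXC and other chemokines from 1 to 5 and interleukins from 0 to 5.

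The genes that entered came mostly from genes already above background. Il6 alone of the 195 was below background on both arrays at 0 h (-5.15, -5.09), and it had 5.04 in wild-type and 5.22 in LysM-St18flox cells at 3 h. Cxcl10 had -3.63 and -2.94 at 0 h and 8.06 and 7.89 at 3 h, and Acod1, which makes itaconate, 1.59 and 1.40 at 0 h and 8.15 and 7.86 at 3 h. Among listed genes that left the top band were regulators: Pparg (4.59, 4.38 at 0 h and 2.30, 2.39 at 3 h), Lyl1 (4.66, 4.77 and 0.81, 1.31), Jun (5.22, 5.52 and 2.47, 3.17) and Rxra (4.96, 4.95 and 3.41, 3.35). The median percentile of the myeloid transcription factors was 86.2 at 0 h and 78.8 and 79.9 at 3 h. The differences of the neutrophil and B cell medians between the genotypes were present at 3 h as well, at 71.8 in wild-type and 58.9 in LysM-St18flox cells for neutrophil genes and 55.0 and 68.6 for B cell genes.

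**Figure D5:**
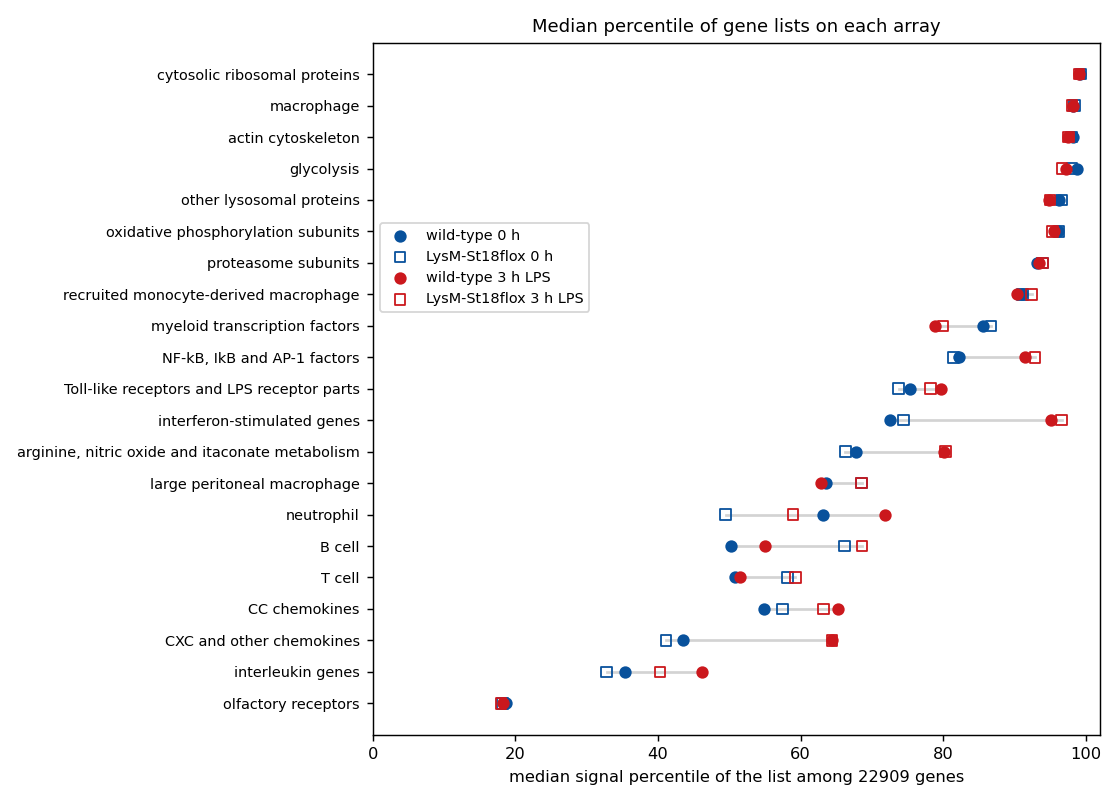
Median signal percentile of gene lists (in percentiles of all named genes) on each of the 4 arrays, wild-type and LysM-St18flox at 0 h and at 3 h of LPS. The ribosomal, lysosomal and macrophage medians stay near the upper end on all 4 arrays, while the interferon-stimulated genes reach 95.1 in wild-type and 96.6 in LysM-St18flox cells at 3 h.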

How the data were processed

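RNA of 4 samples was hybridised to Agilent 1-colour arrays, 1 array per group. Images were read with Feature Extraction 11.0.1.1, per the submitters' processing notes. The deposited files hold the processed signal as an intensity, background-subtracted and spatially detrended per the file headers, with no normalization between arrays. The deposited table of log2 values lists 25482 probes. Each of its columns correlated with its own array (r at least 0.99994) more than with any other (at most 0.99069). All columns have the same median, 9.58, and the same 75th percentile, 11.76, and how they were normalized is not stated in the sources used here. Other columns of the deposited files hold spot flags (background, saturation, outlier).

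Control spots and spots with outlier flags (129 on the wild-type and 104 on the LysM-St18flox array at 0 h, of 59305) were left out, spots of 1 probe were averaged, and log2 signals were taken relative to each array's 75th percentile. Of 56605 probes, 32994 carried a gene name that could be used and 23611 did not. They gave 22909 genes, each represented by its brightest probe. The files name build mm9. Gene types and start windows came from RefSeq on GRCm38.p6, matched by symbol, and no coordinate was carried between the builds.

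The text names the 40 brightest genes, up to 6 of the brightest and up to 6 undetected members of a list, defining lineage genes, 3 genes on each side of the band edge, and the genes with the largest gaps between arrays or between probes (up to 8 each). Predicted genes and clone names were passed over, and some other genes that this rule would name are not reported here. Middle-band and dimmest members, known binders of motifs and genes moving at 3 h were picked after their values were seen. The experiment and the lists were chosen with earlier results of these data known, and name patterns of the S100, integrin and interleukin lists were corrected after the data were seen.

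With 1 array per group no test was made, and the number of arrays limits the precision. Ranking and counting were checked on simulated data. Alternatives covered the array, probe, background correction (normexp of limma 3.58.1 under R 4.3.3, offset 50, on median signals), normalization, genes ranked and band edges. Python 3.11.15, numpy 2.4.6, pandas 2.3.3, scipy 1.17.1 and matplotlib 3.10.9 were used.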

Additional observations from a re-analysis of the deposited data

How the results depend on the processing

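A total of 282 results was recomputed in 3303 combinations of result and alternative. Of these, 2876 stayed within the 95% exact binomial interval of the reported share, or within the tolerance set for a median percentile (the difference between the arrays, at least 2.5 points), and 427 did not. The interval covers the number of genes in a list only. Keeping the spots with outlier flags, quantile normalization and the brightest probe over all 4 arrays moved no result beyond these limits, normexp 1 of 276 and the raw median signal 2 of 276. Shares of genes above background rest on the scanner's flag of any probe of a gene. Quantile normalization, normexp, the raw signal, the mean of all probes and the brightest probe over all 4 arrays therefore could not move them. They are counted as unmoved, so these counts overstate stability. Among the choices of probe, the mean of all probes moved 38 of 276, and the second-brightest probe, an alternative chosen after seeing the data, 60 of 275. The wild-type array alone moved 9 of 275 and the LysM-St18flox array alone 15 of 275. Restricting genes to curated mRNA accessions moved 42 of 276. The largest shares moved with the set ranked and the band edge: ranking among genes above background only moved 96 of 179, the deposited values moved 94 of 179, a top band of 1% 49 of 91 and one of 10% 18 of 91.

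The share of genes above background on both arrays (55.37%) was 58.49% on the wild-type array alone, 58.79% on the LysM-St18flox array alone, 61.82% on at least 1 array, 60.14% among curated mRNAs and 48.61% with the second-brightest probe. Olfactory receptors above background went from 5.05% to 9.54% on the wild-type and 8.89% on the LysM-St18flox array alone, and large peritoneal macrophage genes from 91.3% to 100.0% on the LysM-St18flox array alone. The share of oxidative phosphorylation subunits in the top band (60.0%) was 73.33% with the mean of all probes, 33.33% when ranked among genes above background only and 26.67% in the deposited table. For the actin cytoskeleton (76.6%) it was 53.19%, 59.57% and 59.57% in the same order, and 57.45% with the second-brightest probe. For large peritoneal macrophage genes (17.39%) it was 4.76% among genes above background and 4.76% in the deposited table. Lists with at least 50% of members in the top band numbered 11, and 7 under either of these rankings, since the band then holds fewer genes. A top band of 1% held 60.76% of ribosomal proteins, 2.67% of oxidative phosphorylation subunits, 20.51% of other lysosomal proteins, 27.66% of actin genes, 31.82% of macrophage, 0.0% of large peritoneal macrophage and 10.0% of recruited macrophage genes. A top band of 10% held 88.0% of oxidative phosphorylation subunits and 89.36% of actin genes. Centring on the median of probes above background subtracted -0.23 and -0.22 from the 0 h arrays, which cannot change ranks within an array, but moved 2 of the 6 signals it was run on by more than the arrays differed, those of Csf1r and Adgre1. No paired analysis was possible because each group held 1 array and no test was made. Probes near background and signals that reflect a probe's sequence limit any reading of abundance.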
